A study of Mus musculus with 77 samples.

Results

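Rpe65, Ttr, Dct, Pmel, Tyr, Tyrp1, Lrat, Best1, Mlana and Enpp2 are 10 genes known from pigmented cells of the eye, 10 of the 21154 genes that the probes of the array name. Enpp2 was chosen by its difference between OIR and control retinas on P17, and the others were selected on their covariation with it and each other between mice of a group, so the P17 difference of Enpp2 and the covariation are described here and not tested. The tests of the other genes are of genes picked in that way. Every non-control probe whose transcript maps to one of the symbols was used, 12 of 55681 probes, with 2 probes each for Dct and Tyr. A gene is represented by its brighter probe unless the second is named.

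Oxygen-induced retinopathy (OIR) was produced in C57BL/6 mice by 75% oxygen from P7 to P12 followed by room air, and control mice remained in 21% oxygen. An array held the pooled retinas of 1 mouse against a universal mouse reference RNA, so 77 arrays stand for 77 mice. Whole litters received one oxygen level and no label names the litter of a mouse, so the tests treat mice as independent and litter could not be taken into account. Group sizes were 12 control and 13 OIR on day 12, the same on day 17, and 14 control and 13 OIR on day 28. By the methods, retinas were freed of other tissue, and in RNA of whole tissue fewer cells of a type cannot be told apart from less RNA per cell. The number of probes with a retina signal well above local background had medians of 21095.5 and 20050 (control, then OIR) at P12, then 20842.5 and 20283 at P17, then 32168 and 32884 at P28.

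The retinal pigment epithelium lies against the photoreceptors and regenerates their chromophore through the visual cycle. It also holds melanin, made in melanosomes by enzymes that melanocytes of the choroid share. Enpp2 encodes autotaxin, a secreted enzyme that makes lysophosphatidic acid.

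Values are log2 ratios of retina over reference. The sample labels give the retina to Cy5, but the rod genes Sag, Gnat1, Pde6b, Nrl, Nr2e3 and Cnga1 were brighter in Cy3 on 77 of 77 arrays, so the ratios here are Cy3 over Cy5, against the labels. The retina signal was well above background on 77 arrays for Ttr, Dct and Enpp2, on 75 for Rpe65, 74 for Tyr, 69 for Pmel, 59 for Tyrp1, 44 for Mlana and 23 for Lrat. Best1, a chloride channel of the pigment epithelium, and the second Tyr probe were not well above background on any array, so their ratios are of background signals. The reference signal was well above background on 77 arrays for Enpp2, 64 for Tyr, 30 for Pmel, 17 for Ttr, 9 for Mlana, 5 for Dct, 4 for Tyrp1, 1 for Best1 and 0 for Rpe65 and Lrat. Except for Enpp2 and Tyr, the ratios thus have a reference that was not well above background on most arrays.

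On P17 the Enpp2 ratio ran from 0.21 to 1.34 (median 0.48) in control mice and from -0.75 to 0.36 (median -0.27) in OIR mice. Each of the 13 OIR mice was under the control median, and 1 of 13 was inside the control range. The OIR minus control difference was -0.90 (SE 0.14), 1.86-fold, and it is the value that chose the gene. With the mean ratio of the other 9 genes as a covariate, it was -0.69 (SE 0.11), again as a description. The genes entered that mean unscaled, Best1 at background among them. Over deviations of mice from their group means, the mean had r = 0.98 with Dct, the highest, 0.79 with Rpe65 and -0.40 with Tyr, the lowest. Whether the remaining difference goes beyond that of pigment epithelium genes was not tested. The Enpp2 ratio on P12 ran from -0.49 to 0.42 (median -0.08) in control and from -0.41 to 0.53 (median -0.05) in OIR mice, and on P28 from -0.24 to 0.87 (median 0.11) and from 0.01 to 0.44 (median 0.17). The groups overlapped on both days. The differences were -0.03 (SE 0.10, adjusted p = 0.9997) on P12 and 0.02 (SE 0.09, adjusted p = 0.957) on P28, smaller than the spread between mice.

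**Figure D1:**
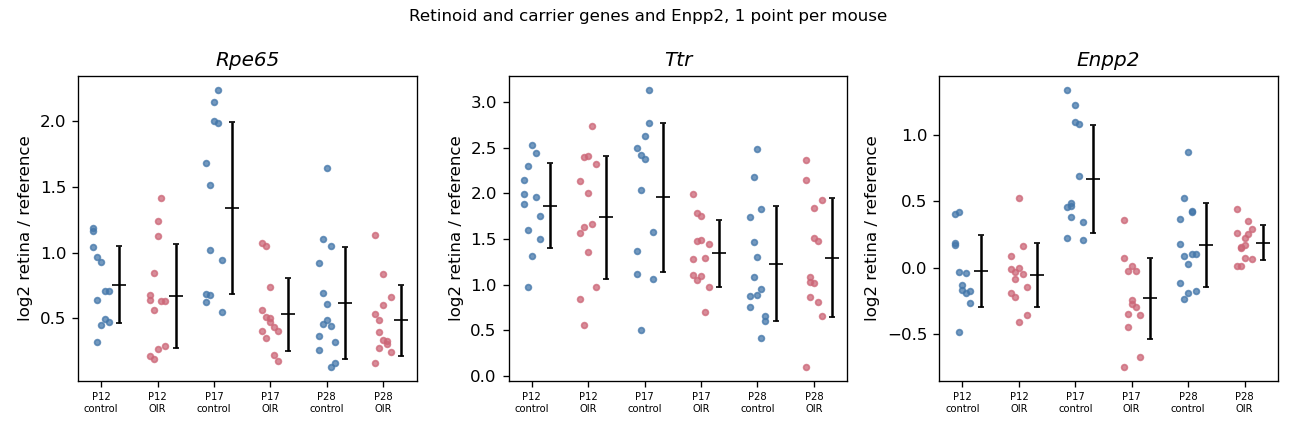
Log2 retina over reference of Rpe65, Ttr and Enpp2 in each mouse, by day and oxygen group. Points are mice and bars the mean and SD. On P17 each of the 13 OIR points of each gene is under the control median.

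Among the visual cycle genes, Rpe65, the isomerase that makes 11-cis retinol, was lower in OIR retinas on P17. Its ratio ran from 0.55 to 2.24 (median 1.27) in control mice and from 0.17 to 1.08 (median 0.47) in OIR mice. Each of the 13 OIR mice was under the control median, and the groups overlapped, with 4 of 13 OIR mice inside the control range. Rpe65 fell by 0.81 (SE 0.19, adjusted p = 0.0322) in limma, 1.75-fold. It was the 1 gene called of the 9 other than Enpp2, against 1.13% of all probes. Of the 9, 3 had an unadjusted p under 0.05, beside 5772 of 55681 probes. Since Rpe65 varied with Enpp2 between mice, this difference is not independent of the values that chose Enpp2.

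The Rpe65 call on P17 depended on the arrays and on the slide. The difference was -1.57 (adjusted p = 0.0157) in the authors' ratio and -1.43 with offset 0, where it was also called. With slide as a fixed term the difference was -0.69 (adjusted p = 0.0788), and with slide as a random block -0.76 (adjusted p = 0.0150). Leaving out any 1 of 14 of the 25 arrays ended the call, with differences of -0.88 to -0.73 and adjusted p from 0.0143 to 0.0661 over the 25. These were the OIR mice retina_115, retina_133, retina_175, retina_182, retina_185, retina_190, retina_192 and retina_195 and the control mice retina_84, retina_146, retina_254, retina_256, retina_259 and retina_284. On the 6 slides that held both groups, Rpe65 was lower in OIR mice on 6, by -0.17 to -1.29. Within scan days the difference was -0.52 on day 1, -0.65 on day 3 and -0.91 on day 4, and day 2 held 1 P17 mouse. Without scan day 1, 3 or 4 the difference was -0.91, -0.79 and -0.54, and the adjusted p was 0.123, 0.634 and 0.222.

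Ttr encodes transthyretin, which carries thyroxine. On P17 its ratio ran from 0.50 to 3.13 (median 2.21) in control and from 0.69 to 1.995 (median 1.29) in OIR mice. Each of the 13 OIR mice was under the control median, yet 13 of 13 were inside the control range. The difference of -0.62 (SE 0.24, adjusted p = 0.329) did not pass, and in the authors' ratio it was 0.02. Lrat, which esterifies retinol, differed by -0.11 (SE 0.05, adjusted p = 0.404) and was well above background on 4 of 12 control and 1 of 13 OIR arrays. Over the alternatives the Lrat difference on P17 was -1.30 to -0.02, and it was called with the retina channel alone, at -0.27. On P12 the differences were -0.08 (SE 0.14) for Rpe65, -0.13 (SE 0.23) for Ttr and 0.01 (SE 0.03) for Lrat. On P28 they were -0.13 (SE 0.14), 0.06 (SE 0.24) and 0.03 (SE 0.04). None of these 6 was larger than the spread between mice.

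Of the melanin genes, 0 were called by limma on P17. Dct, the dopachrome tautomerase, differed by -0.57 (SE 0.34, adjusted p = 0.579) and by -0.45 (SE 0.28) on its second probe. Tyrp1, a melanosomal enzyme, differed by -0.15 (SE 0.16), Pmel, which forms the fibrils of the melanosome, by -0.12 (SE 0.18), and Mlana, a melanosomal membrane protein, by 0.02 (SE 0.14). Tyr, the rate-limiting tyrosinase, differed by 0.02 (SE 0.04). None of them had an unadjusted p under 0.05. On P12 the differences were -0.31 (SE 0.26) for Dct, -0.06 (SE 0.11) for Tyrp1, -0.01 (SE 0.17) for Pmel and -0.04 (SE 0.04) for Tyr. Of the 10 genes, 0 were called by limma on P12 against 0.0233% of all probes. There, 0 of the 10 had an unadjusted p under 0.05, beside 1740 of 55681 probes.

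On P28 the melanin genes other than Tyr were higher in OIR mice without a call. Dct ran from 0.36 to 3.75 (median 1.19) in control and from -0.73 to 4.92 (median 2.52) in OIR mice. The groups overlapped, and the second Dct probe ran from 0.25 to 4.22 (median 1.89) in OIR mice. The lowest OIR mouse, retina_18, was the same on both probes, at -0.73 on the first and 0.25 on the second. It was under the control range of the first probe and inside that of the second, which began at 0.18. Dct differed by 0.96 (SE 0.48, adjusted p = 0.678) and by 0.93 (SE 0.38, adjusted p = 0.641) on the second probe. Tyrp1 ran from -0.01 to 2.19 (median 0.21) in control and from 0.08 to 2.61 (median 1.17) in OIR mice. These groups overlapped too, with 11 of 13 OIR mice inside the control range and 1 under the control median. In the authors' ratio Dct differed by 0.28 and Tyrp1 by 1.71. With the offset, the Tyrp1 difference was 0.72 (SE 0.27, adjusted p = 0.615), that of Pmel 0.52 (SE 0.24), that of Mlana 0.49 (SE 0.23) and that of Tyr -0.07 (SE 0.06). Of 10 genes, 0 were called by limma on P28 against 0.0611% of all probes. The unadjusted p was under 0.05 for 3 of the 10, beside 4144 of 55681 probes.

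The P28 groups were spread unevenly over scan days. Scan day 4 held 11 of 13 OIR and 9 of 14 control mice of P28, and there Dct differed by 0.86 and Tyrp1 by 0.64. The other scan days held P28 mice of 1 group each. Without scan day 4, which left 2 OIR and 5 control mice, Dct differed by -0.15 and Tyrp1 by 0.27. On 3 slides with both groups, Dct differed by 0.10 to 1.996, Tyrp1 by 0.19 to 1.15, Pmel by -0.17 to 1.14 and Mlana by -0.02 to 0.88, and Pmel and Mlana were each lower in OIR mice on 1 of the 3. The reference channel alone differed on P28 by 0.25 (SE 0.17) for Dct, 0.02 (SE 0.02) for Tyrp1, 0.15 (SE 0.07) for Pmel and 0.12 (SE 0.05) for Mlana. The part of the scan day and of the reference channel in these differences was not tested.

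**Figure D2:**
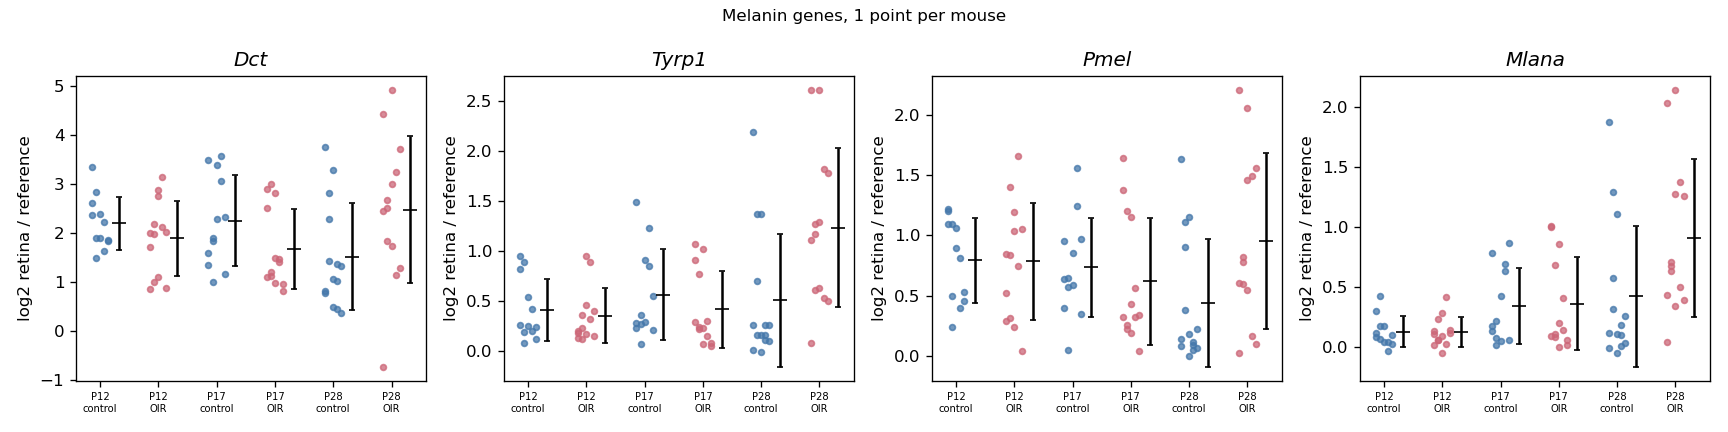
Log2 retina over reference of Dct, Tyrp1, Pmel and Mlana in each mouse, by day and oxygen group. Points are mice and bars the mean and SD. The P28 groups overlap for each of the 4 genes.

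Across days, Rpe65 in control mice was 0.58 higher on P17 than on P12 (SE 0.16, adjusted p = 0.0536), which did not pass. Of 9 genes other than Enpp2, 0 were called by limma in that contrast against 1.28% of all probes. In it, 1 of the 9 had an unadjusted p under 0.05, beside 4569 of 55681 probes. Rpe65 was called in that contrast with slide as a random block or a fixed term, without background subtraction, with offset 0, with the retina channel alone, with the filter on dim probes, with array weights, without scan day 2, and without any 1 of 13 of the 77 arrays. From P17 to P28 in control mice, Rpe65 fell by 0.72 (SE 0.16, adjusted p = 0.000775) and Ttr fell by 0.73 (SE 0.24, adjusted p = 0.0321), 2 of 9 genes against 13.4% of all probes. The Ttr call ended without any 1 of the control mice retina_84, retina_146, retina_254, retina_256 and retina_259 of P17 or retina_37 and retina_89 of P28, which left 1 call, and it also ended with array weights and without scan day 3 or 4. Enpp2 in control mice differed by 0.69 from P12 to P17, a description, since P17 control values entered its choice. The contrasts between days share control mice with the comparisons by day and with each other.

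From P12 to P28 in control mice, Ttr fell by 0.63 (SE 0.24, adjusted p = 0.0449) and Tyr fell by 0.14 (SE 0.05, adjusted p = 0.0236), 2 of 10 genes against 23% of all probes. The second Tyr probe, at background, did not show the fall. By limma it differed by 0.003 (SE 0.01, adjusted p = 0.900) in control and by -0.005 (SE 0.01, adjusted p = 0.754) in OIR mice. The Ttr call ended without any 1 of the P12 control mice retina_2, retina_90, retina_148, retina_200, retina_207, retina_267, retina_272 and retina_282 or the P28 control mice retina_5, retina_37, retina_41, retina_65, retina_69, retina_75, retina_85, retina_89 and retina_236, and the Tyr call ended without retina_208 of P28, which in each case left 1 call. Ttr was also not called with array weights or without scan day 3, and Tyr not with slide as a random block or a fixed term or without scan day 1 or 4. In OIR mice, Tyrp1 rose by 0.88 (SE 0.20, adjusted p = 0.000280), Mlana rose by 0.78 (SE 0.17, adjusted p = 8.95e-05) and Tyr fell by 0.17 (SE 0.05, adjusted p = 0.00258), 3 of 10 genes against 39.3% of all probes. With slide as a fixed term these 3 calls ended and 2 other genes, Rpe65 and Ttr, were called. Without scan day 4, which left 2 OIR mice of P28, the 3 calls ended too. Scan day 4 held 11 OIR mice of P28 and 2 of P12, and 9 control mice of P28, 5 of P17 and 3 of P12. Changes between days thus cannot be fully told apart from scan day. The Tyrp1 call also ended in the authors' ratio, and the Tyr call with slide as a random block and without scan day 3. Enpp2 differed by 0.20 (SE 0.11, adjusted p = 0.224) in control and 0.25 (SE 0.11, adjusted p = 0.0774) in OIR mice. The OIR effect on P28 minus that on P12 was called for 0 of 10 genes in limma against 0.0395% of all probes, with 3 at an unadjusted p under 0.05. The largest of these was 1.27 (SE 0.55, adjusted p = 0.742) for Dct.

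The residual SD of mice around the group means was 0.99 for Dct, above 99.8% of all probes, 0.62 for Ttr, 0.52 for Pmel, 0.52 for Tyrp1, 0.43 for Mlana, 0.41 for Rpe65 and 0.29 for Enpp2, above 85.2%. It was 0.12 for Tyr, 0.10 for Lrat and 0.06 for Best1, above 59.3%, 55.5% and 31.1%. The median SD over all probes was 0.08. The offset narrows the spread of dim probes such as those of Lrat and Best1, so these SDs also depend on brightness.

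Deviations of mice from their group means went together among most of the genes, over 77 arrays that share slides and scan days. The r without 2 arrays leaves out the 2 farthest from the median of the pigment mean, the mean deviation of the 9 genes other than Enpp2, and covariation helped to choose the genes, so no p is given. Dct and Tyrp1 had r = 0.93 (Spearman r = 0.91, r = 0.92 without the 2 arrays). Tyrp1 and Mlana had r = 0.92 (Spearman r = 0.86, r = 0.90 without the 2 arrays). Dct and Pmel had r = 0.90 (Spearman r = 0.90, r = 0.89 without the 2 arrays). The melanin genes other than Tyr thus moved closely with each other. Rpe65 and Ttr had r = 0.87 (Spearman r = 0.90, r = 0.86 without the 2 arrays). Rpe65 and Enpp2 had r = 0.72 (Spearman r = 0.68, r = 0.72 without the 2 arrays), the highest of the 9 over all arrays, but in 4 of the 6 groups the r of another gene with Enpp2 was higher. Tyr had r = -0.47 (Spearman r = -0.39, r = -0.43 without the 2 arrays) to Dct and r = -0.35 (Spearman r = -0.37, r = -0.34 without the 2 arrays) to Enpp2. With deviations also taken from the slide they were -0.21 and -0.13. Best1, at background, had r = 0.15 (Spearman r = 0.14) to Enpp2.

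The median r over the 36 pairs of the 9 genes other than Enpp2 was 0.45 (median Spearman r 0.49, 0.49 without the 2 arrays). By group it was 0.50 in P12 control, 0.31 in P12 OIR, 0.51 in P17 control, 0.29 in P17 OIR, 0.53 in P28 control and 0.42 in P28 OIR mice. Enpp2 and the pigment mean had r = 0.59 (Spearman r = 0.59, 0.61 without the 2 arrays). In the same order of groups this r was 0.80, 0.44, 0.75, 0.67, 0.68 and 0.44, with Spearman r 0.85, 0.38, 0.69, 0.74, 0.41 and 0.52. The r of Enpp2 with single genes was not of one sign in each group: with Tyr it ran from -0.81 to 0.14, and with Lrat it was -0.26 in P17 OIR mice. Over 21144 genes outside the 10 the median r with the pigment mean was 0.06, and 17% had an r above 0.5. With Enpp2 the median was 0.06 and the share 11.3%.

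The deviations also went with slide and scan day. The pigment mean averaged 0.21 on scan day 4, -0.09 on day 1, -0.13 on day 3 and -0.58 on the 3 arrays of day 2. Slides held 46.2% of the sum of squares of the pigment mean and 34.7% of that of Enpp2, with 14.1% of the degrees of freedom. With deviations also taken from the slide, the median r of the 9 genes was 0.29 and the r of Enpp2 with the pigment mean 0.44. In the authors' ratio, which has no offset, they were 0.09 and 0.39. Without scan day 4 they were 0.17 and 0.40.

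**Figure D3:**
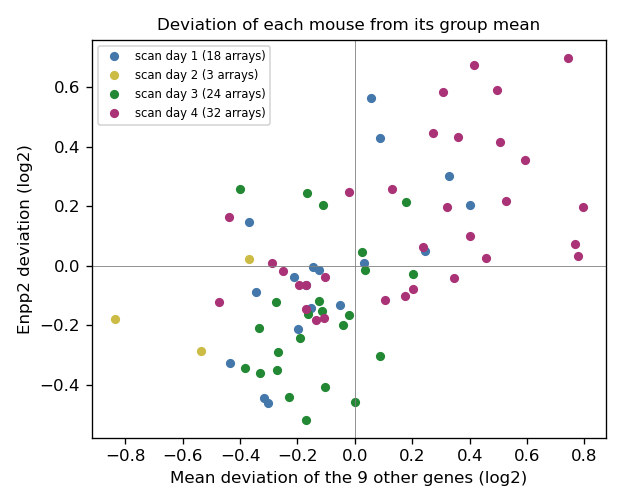
Deviation of each mouse from its group mean in log2, with the mean of the 9 other genes on the horizontal and Enpp2 on the vertical axis. Colours mark the 4 scan days, and 21 of 32 arrays of scan day 4 lie above their group mean on the horizontal axis.

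Outside the 10 genes, those with the highest r to the pigment mean over 77 arrays were Cox8b with 0.93 (Spearman r 0.91), Rdh5, a retinol dehydrogenase, with 0.87 (Spearman r 0.89), C1qtnf5 with 0.86 (Spearman r 0.82), Kcnj13, a potassium channel, with 0.83 (Spearman r 0.81), Slc38a8 with 0.81 (Spearman r 0.79), Rgr, a retinal G protein-coupled receptor, with 0.80 (Spearman r 0.84), Clic6 with 0.79 (Spearman r 0.80), Penk, proenkephalin, with 0.78 (Spearman r 0.80), Zic1 with 0.78 (Spearman r 0.74) and Trpm3, a cation channel, with 0.77 (Spearman r 0.73). Outside the 10 genes, those with the highest r to Enpp2 were Rdh5 with 0.73 (Spearman r 0.68), Flvcr2 with 0.71 (Spearman r 0.66), Rgr with 0.70 (Spearman r 0.67), Pon1 with 0.70 (Spearman r 0.65), Zik1 with 0.68 (Spearman r 0.67), Cltrn with 0.68 (Spearman r 0.64), Plekha3 with 0.68 (Spearman r 0.66), Hsdl2 with 0.67 (Spearman r 0.60), Cpxm2 with 0.66 (Spearman r 0.61) and Lrba with 0.66 (Spearman r 0.65). Rdh5 and Rgr were among the 10 of each.

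Wider lists of genes were measured too, and they hold some of the 10 genes, 5 in the first list below and 2 in the second. Of 16 melanosome and melanin genes, 13 were lower on P17 (median -0.05 against 0.00097 for all probes) and 12 higher on P28 (median 0.08 against 0.00029 for all probes). On P12, P17 and P28, 0 were called by limma. An unadjusted p under 0.05 was found for 0, 2 and 6 of the 16, beside 1740, 5772 and 4144 of 55681 probes. The brightest of the 16, Trpm1, a channel also of bipolar cells, differed by -0.18 (SE 0.23, adjusted p = 0.799) on P17, and Mreg by -0.27 (SE 0.13, adjusted p = 0.488). Of 15 other pigment epithelium genes, 10 were lower on P17 (median -0.07), with 0 called by limma and 8 at an unadjusted p under 0.05, beside 5772 of 55681 probes. Of these 8 genes, Krt18, a keratin, at 0.43 (SE 0.11), Ezr at 0.35 (SE 0.12) and Itgb5 at 0.14 (SE 0.05) were higher. The others of the 8 were lower. On P28, 13 of the 15 were higher (median 0.06). Krt18 was called by limma at 0.49 (SE 0.08, adjusted p = 0.00478), 1 of 15 against 0.0611% of all probes. Its r with the pigment mean was 0.26, and the median r of the 15 was 0.24, so this list followed the pigment mean only weakly. Of 11 autotaxin and lysophosphatidic acid genes other than Enpp2, 7 were higher on P17 (median 0.03). The receptor Lpar6 was called by limma at 0.35 (SE 0.08, adjusted p = 0.0233), 1 of 11 against 1.13% of all probes. There were 4 at an unadjusted p under 0.05, beside 5772 of 55681 probes. Of these 4 genes, Plpp2 at -0.44 (SE 0.12) and Plpp3 at -0.25 (SE 0.11) were lower, and the others were higher. On P12, 0 genes of these 3 lists were called by limma, and 0 had an unadjusted p under 0.05, with medians of -0.01, 0.01 and 0.01.

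The 10 pigment epithelium markers hold Rpe65, Lrat, Best1 and Ttr, which are part of the pigment mean. The r of the other 6 with it was 0.87 for Rdh5, 0.83 for Kcnj13, 0.80 for Rgr, 0.75 for Slc16a8, 0.70 for Rrh and -0.20 for Stra6. On P17 10 of 10 were lower (median -0.32), Best1 at background among them. Rpe65 was called, and 8 had an unadjusted p under 0.05, beside 5772 of 55681 probes. The summed processed signal of the 10 markers on P17 ran from 3770 to 15900 in control (median 8490) and from 2710 to 9270 in OIR mice (median 3470). The groups overlapped. Ttr was the brightest. The medians were 5830 and 5760 (control, OIR) on P12 and 4620 and 4990 on P28. Scan day 4, on which the pigment mean was highest, held 5 control and 2 OIR mice of P17. Their sums were 14200, 14900, 15400, 15900 and 7630 in control and 9270 and 5550 in OIR mice. The part of the scan day in the P17 difference of the sums was not tested. The 7 markers of melanin-forming cells hold 5 genes of the pigment mean, and the r of the other 2 with it was 0.71 for Oca2 and 0.22 for Slc45a2. On P28 5 of the 7 were higher (median 0.49), with 0 called by limma and 4 at an unadjusted p under 0.05, beside 4144 of 55681 probes. The summed signal of the 7 on P28 ran from 623 to 17600 (median 1570) in control and from 1370 to 36300 (median 5720) in OIR mice, with Dct brightest. The groups overlapped, and scan day 3 held 5 control and 0 OIR mice of P28. The 4 markers of neural crest melanocytes had a median r of 0.59, and 4 were higher on P28 (median 0.11), with 0 called by limma and 0 at an unadjusted p under 0.05.

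Markers of other cells are given for P17, on which 1.13% of all probes were called. The unadjusted p was under 0.05 for 1740, 5772 and 4144 of 55681 probes on P12, P17 and P28. On P17, 4 of 4 Mueller glia markers were lower (median -0.39, median r 0.40 with the pigment mean), with 0 called by limma and 3 at an unadjusted p under 0.05. Their summed signal ran from 46200 to 96700 (median 75000) in control and from 33600 to 73400 (median 49400) in OIR mice, which overlapped, with Glul brightest. Of 7 fibroblast markers of choroid and sclera, 7 were higher (median 0.34, median r -0.43), with 0 called by limma and 4 at an unadjusted p under 0.05. Their summed signal ran from 2510 to 5610 (median 3410) and from 3830 to 7770 (median 5530), which overlapped, with Col1a2 brightest. On P12 4 of 4 Mueller glia markers were lower and 7 of 7 fibroblast markers higher, with 0 called by limma and 1 and 0 at an unadjusted p under 0.05, yet the summed fibroblast signal on P12 ran from 1890 to 5480 (median 4290) in control and from 2010 to 5070 (median 3320) in OIR mice, lower in the median of OIR mice, and the Mueller glia signal from 34400 to 65800 (median 50800) and from 24100 to 61500 (median 41700), with overlap in both. On P17, 3 of 3 measured endothelium markers were higher (median r -0.29), with Plvap called at 0.29 (SE 0.07, adjusted p = 0.0352), and Ca4 had no matched probe. Of 7 lens markers, 6 were lower (median r 0.34), with Bfsp2 called at -0.31 (SE 0.07, adjusted p = 0.0159). The 3 red blood cell markers were higher (median r 0.26), with Hba-a1 called at 1.38 (SE 0.25, adjusted p = 0.00264), and on P12 3 of 3 were lower, with 0 called by limma and 3 at an unadjusted p under 0.05. On P17, of 4 skeletal muscle markers, 2 were lower (median r -0.15), with 0 called by limma and 0 at an unadjusted p under 0.05. On P28 3 of 4 Mueller glia, 4 of 7 fibroblast, 1 of 3 endothelium, 3 of 7 lens, 2 of 3 red blood cell and 3 of 4 skeletal muscle markers were higher, with 0 called by limma and 1 in all at an unadjusted p under 0.05. The summed fibroblast signal on P28 ran from 1670 to 6260 (median 2550) in control and from 2660 to 9300 (median 4830) in OIR mice, which overlapped. The summed lens signal on P28 ran from 278 to 1510000 (median 7030) in control and from 348 to 761000 (median 16200) in OIR mice, which overlapped, with Cryaa brightest. The part of these cells in the results was not tested.

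Promoters are printed because most of these genes varied together, though Tyr had a negative r to Dct and Best1 was at background. RefSeq promoters of 300 bases on GRCm38.p6 matched 6 of the 10 genes, Rpe65, Dct, Tyr, Tyrp1, Lrat and Best1, and Pmel, Mlana, Enpp2 and Ttr had no entry. Read on both strands, CATGTG was in 4 of the 6 and in 14.2% of 32851 promoters. The letters TAATCC were in 4 of the 6 and in 7.06% of promoters, and the letters CACGTG in 0 of the 6 and in 7.15%. A match describes letters and no binding. Only promoters that hold both CATGTG and TAATCC are shown. Tyr held CATGTG alone, Best1 TAATCC alone and Lrat neither. Shown are Rpe65 at chr3:159598931-159599230 on the plus strand, Dct at chr14:118052197-118052496 on the minus strand and Tyrp1 at chr4:80833963-80834262 on the plus strand, with capitals for CATGTG and also for TAATCC on either strand.
Rpe65: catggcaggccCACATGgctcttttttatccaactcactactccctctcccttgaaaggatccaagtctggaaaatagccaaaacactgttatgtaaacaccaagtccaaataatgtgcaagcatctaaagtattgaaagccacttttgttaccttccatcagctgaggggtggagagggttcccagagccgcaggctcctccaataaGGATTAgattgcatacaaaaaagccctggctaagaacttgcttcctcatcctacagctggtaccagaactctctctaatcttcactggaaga
Dct: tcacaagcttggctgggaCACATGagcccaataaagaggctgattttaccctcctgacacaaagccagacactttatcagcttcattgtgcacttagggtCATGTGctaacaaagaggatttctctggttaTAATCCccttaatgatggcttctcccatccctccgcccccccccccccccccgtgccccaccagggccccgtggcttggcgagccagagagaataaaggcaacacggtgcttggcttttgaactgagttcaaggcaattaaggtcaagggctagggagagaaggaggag
Tyrp1: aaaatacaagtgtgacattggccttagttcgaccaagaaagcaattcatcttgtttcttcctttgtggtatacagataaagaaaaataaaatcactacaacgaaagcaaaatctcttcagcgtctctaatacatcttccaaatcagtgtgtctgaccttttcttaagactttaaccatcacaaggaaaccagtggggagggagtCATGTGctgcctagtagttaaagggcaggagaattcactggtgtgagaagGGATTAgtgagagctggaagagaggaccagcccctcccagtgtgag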

How the data were processed

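Spot and background signals are intensity values that, per the file headers, Feature Extraction 10.7.3.1 wrote for both channels. The deposited table of the authors holds log2 ratios of the processed intensity, equal to log2 Cy3 over Cy5 within 0.01 on 100% of probes of each array, and it served as an alternative. Median signals were background-corrected by normexp (offset 50) and normalized by loess within each of the 77 arrays in limma 3.58.1 (R 4.3.3). Control and outlier spots had no weight in the loess curve. Spots marked non-uniform or outlying, 0.592% to 0.951% of an array, were left out, and spots of a probe were averaged. Of 55681 probes, 28026 had a RefSeq symbol. OIR and control mice were compared per day, and days as contrasts in a fit of the 6 groups, by limma's moderated statistic, 2-sided, with Benjamini-Hochberg adjustment over 55681 probes and calls at 0.05. The procedure was tested on simulated data. The number of arrays limits the precision.

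The genes and lists were chosen with earlier results of these data known, and 2 further lists were measured and are not printed. Named genes were the 10 genes, genes past the threshold or otherwise among the 3 brightest of the printed lists, and the 10 genes most correlated with the pigment mean and with Enpp2. Genes of those lists with an unadjusted p under 0.05 on P17 against the direction of most of their list were named too. Alternatives were the authors' ratio, no background subtraction, offset 0, the retina channel alone, a filter on dim probes, slide as a random block or fixed term, array weights, the pigment mean as a covariate, leaving out each array and, chosen after seeing the data, leaving out each scan day.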

Additional observations from a re-analysis of the deposited data

Results flagged for a closer look

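By limma, 0 of the 10 genes had an OIR effect called different on P28 from that on P12. In the contrasts with P17, 0 of the 9 genes other than Enpp2 were called. Enpp2 was not tested there, since its P17 difference chose it. An unadjusted p under 0.05 was found for 3 of 10 genes for P28 against P12, 2 of 9 for P17 against P12 and 7 of 9 for P28 against P17, beside 3448, 2706 and 7804 of 55681 probes. Of all probes, 0.0395%, 0.48% and 0.278% were called in these contrasts, which share arrays. Groups held more than 10 mice, so single mice were not tested.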

How the results depend on the processing

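Counts of called genes and OIR minus control differences (log2) that changed side or sign are given by alternative, and the cause was not tested. With the authors' ratio, counts were 4 for P17 to P28 control, 4 for P12 to P28 control, and differences were on P12 Pmel 0.15, Lrat -0.00298, Mlana -0.0441, on P17 Ttr 0.0236, Tyr -0.17, Mlana -0.48, on P28 Ttr -0.28, Best1 -0.0301, and the median r of the 9 genes was 0.0936, and the r of Enpp2 with the pigment mean was 0.39. Without background subtraction, counts were 1 for P12 to P17 control, and differences were on P12 Pmel 0.0201, Best1 -0.0240. With offset 0, counts were 1 for P12 to P17 control, 4 for P17 to P28 control, 4 for P12 to P28 control, and differences were on P12 Rpe65 0.0766, Ttr 0.0146, Pmel 0.0729, Best1 -0.0465, Mlana -0.0185, on P17 Tyr -0.0102, on P28 Ttr -0.15, Enpp2 -0.00241, and the median r of the 9 genes was 0.21, and the r of Enpp2 with the pigment mean was 0.46. With the retina channel alone, counts were 2 for P17, 1 for P12 to P17 control, 4 for P17 to P28 control, 5 for P12 to P28 control, 5 for P12 to P28 OIR, and differences were on P12 Ttr 0.0387, Pmel 0.0357, Tyrp1 0.0513, on P17 Pmel 0.0386, Tyr -0.0536, Lrat -0.27, on P28 Ttr -0.0663, Lrat -0.0443, and the median r of the 9 genes was 0.20, and the r of Enpp2 with the pigment mean was 0.44. With probes well above background on at least 10 arrays, counts were 1 for P12 to P17 control, and the median r of the 9 genes was 0.56. With slide as a random block, counts were 1 for P12 to P17 control, and differences were on P12 Pmel 0.0194, on P28 Ttr -0.0344, Enpp2 -0.0427. With slide as a fixed term, counts were 0 for P17, 1 for P12 to P17 control, and differences were on P12 Rpe65 0.0306, Ttr 0.10, Pmel 0.11, Tyrp1 0.0255, on P17 Rpe65 -0.69, Tyr -0.00424, Tyrp1 0.0115, on P28 Ttr -0.13, Best1 -0.00194, Enpp2 -0.10. With array weights, counts were 1 for P12 to P17 control, 5 for P12 to P28 OIR, and differences were on P12 Pmel 0.0843, Best1 -0.00128, on P17 Tyr -0.00717, on P28 Enpp2 -0.00967. With deviations also from the slide, the median r of the 9 genes was 0.29, and the r of Enpp2 with the pigment mean was 0.44. Without scan day 1, counts were 0 for P17, 1 for P12 to P28 control, and differences were on P12 Pmel 0.0380, Lrat -0.00659, on P17 Rpe65 -0.91, Mlana -0.14. Without scan day 2, counts were 1 for P12 to P17 control, and differences were on P12 Pmel 0.0310, on P17 Mlana -0.0147. Without scan day 3, counts were 0 for P17, 1 for P17 to P28 control, 1 for P12 to P28 control, and differences were on P12 Mlana -0.0427, Enpp2 0.0182, on P17 Rpe65 -0.79, Pmel 0.16, Tyr -0.0168, on P28 Ttr -0.19, Best1 -0.00294, Enpp2 -0.11. Without scan day 4, counts were 0 for P17, 1 for P17 to P28 control, 0 for P12 to P28 OIR, and differences were on P17 Rpe65 -0.54, Tyr -0.0265, Tyrp1 0.0284, on P28 Rpe65 0.00495, Ttr -0.21, Dct -0.15, Tyr 0.18, Best1 -0.0106, and the median r of the 9 genes was 0.17, and the r of Enpp2 with the pigment mean was 0.40. Leaving out 1 array at a time, values ranged as follows, counts first: P12 to P17 control 0 to 1, P17 to P28 control 1 to 2, P12 to P28 control 1 to 2, P17 0 to 1, Pmel on P12 -0.0812 to 0.0540, Lrat on P12 -0.0118 to 0.0219, Best1 on P12 -0.00391 to 0.0167, Mlana on P12 -0.0242 to 0.0273, Enpp2 on P12 -0.0796 to 0.00952, Rpe65 on P17 -0.88 to -0.73, Mlana on P17 -0.0387 to 0.0631, Ttr on P28 -0.0261 to 0.16, Enpp2 on P28 -0.0138 to 0.0713. Of the 30 gene differences of the 3 days, 22 of 30 kept sign and side with the authors' ratio, 28 of 30 kept sign and side without background subtraction, 22 of 30 kept sign and side with offset 0, 22 of 30 kept sign and side with the retina channel alone, 24 of 24 kept sign and side with probes well above background on at least 10 arrays, 27 of 30 kept sign and side with slide as a random block, 20 of 30 kept sign and side with slide as a fixed term, 26 of 30 kept sign and side with array weights, 26 of 30 kept sign and side without scan day 1, 28 of 30 kept sign and side without scan day 2, 22 of 30 kept sign and side without scan day 3, 22 of 30 kept sign and side without scan day 4. The filter left no value for genes under it, and the pigment mean as a covariate gave no value for the P17 count, in which Enpp2 is not counted. Best1 was well above background on no array, so its differences here are of a background signal. Differences of Lrat and Mlana rest on signals near background on many arrays.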
